A study of Homo sapiens with 6 samples.

Results

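Dense runs of RNA polymerase II (Pol II) peaks in LNCaP cells exposed to BMH-21 are described here. A run was a stretch of one chromosome with 10 or more listed peaks in which the end of each peak lay at most 10 kb from the start of the next one. The rule found 54 runs, which held 1766 of the 11540 peaks in the BMH-21 Pol II list (15.3%). The runs were chosen by the positions of the BMH-21 Pol II peaks alone, so their number, length, peak widths and scores are a description and were not tested. LNCaP is an established human prostate cancer line that responds to androgen. The BMH-21 cells had been kept in 1 µM of the compound for 6 h and the DMSO cells in its solvent, with both in RPMI-1640 medium with serum. From each culture came 1 chromatin immunoprecipitation (ChIP) library with antibody 4H8, labelled as directed to Pol II phosphorylated at serine 5, and 1 library with antibody C-1 for RNA polymerase I (Pol I). The 4 peak lists are called BMH-21 Pol II (11540 peaks), BMH-21 Pol I (1932), DMSO Pol II (28798) and DMSO Pol I (42547), and the 2 input libraries of the series were not analysed here.

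BMH-21 is a planar DNA intercalator known to block Pol I, which makes the large ribosomal RNA precursor in the nucleolus, and to cause the loss of its largest subunit. Pol II makes messenger RNA. The repeats of its long tail carry phosphate on serine 5 mostly near gene starts, during initiation and promoter-proximal pausing, and less of it as the enzyme moves on through the gene body, so a long stretch of such signal differs from the usual sharp peak at a promoter. With 1 library per antibody and treatment, no difference between treatments can be set against replicates, and none is given a p-value. Intervals are exact Clopper-Pearson 95% intervals and cover no error other than that of counting peaks. The lists carry no read depth, and polymerase may be present where no peak is listed. The lists skip many of the caller's running peak numbers: 38704 in BMH-21 Pol II, 13823 in BMH-21 Pol I, 26641 in DMSO Pol II and 12923 in DMSO Pol I. Counts and shares given here therefore describe listed peaks only, and the lists differ in how much they skip. The label of the cell line could not be checked from peak positions.

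Positions are on hg19. The runs are identified by coordinates without an hg19 annotation, and where a run lies within a gene was not determined. Gene names are given as background, from general knowledge of which gene occupies a stretch of hg19. They were added after the runs had been seen, for 26 runs and 22 genes, and a RefSeq table on GRCh38 lists each of the 22 on the chromosome of its run. The other 28 runs were left without a name.

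The 54 runs were divided into 2 kinds by covered share. In 23 of them, called blocks, at least 50% of the length lay under BMH-21 Pol II peaks, and in the other 31, called sparse runs, less than that. The blocks held 1231 peaks (10.7% of the list, interval 10.1 to 11.2) and the sparse runs 535 (4.64%, interval 4.26 to 5.04). These intervals count each peak as its own draw, yet a single block held as many as 177 of the 1231. Blocks spanned 2.05 Mb on 13 chromosomes, with 83.9% of that length under peaks. Sparse runs spanned 1.37 Mb on 12 chromosomes, with 14.9% of it covered. The blocks therefore held 34.6% of the whole length covered by the BMH-21 Pol II list, and the sparse runs 4.10%. The median block had 47 peaks over 88.6 kb and the median sparse run 14 peaks over 40.1 kb.

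**Figure D1:**
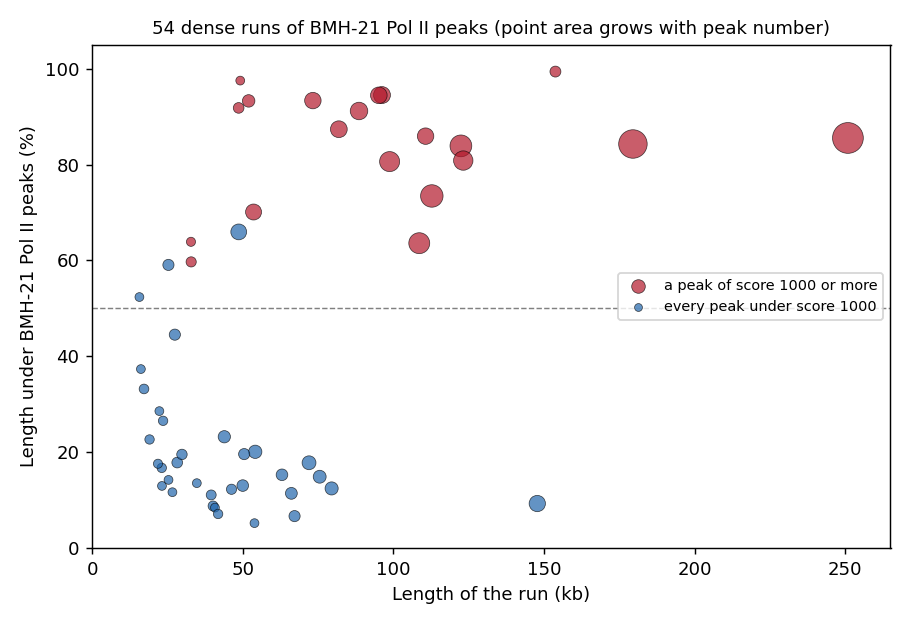
Each point is 1 of the 54 runs, with its length in kb on the x axis and the percent of its length under BMH-21 Pol II peaks on the y axis; red points have a peak with a score of 1000 or more, blue points none, and the dashed line marks 50%. The 20 red points all lie above the line, from 59.7% upward, while the sparse runs lie at 44.5% or below.

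Scores are the authors' and serve here only to rank peaks within a list. Of the 109 BMH-21 Pol II peaks with a score of 1000 or more, 108 lay in blocks, 0 in sparse runs and 1 outside every run, on chromosome 11 at 2150302 to 2151446 (score 1097.46). The value 3100 occurred 14 times and 1 peak exceeded it, and these 15 peaks all lay in blocks. Scores below 100 made up 28.1% of block peaks (interval 25.6 to 30.7), 84.7% of sparse-run peaks (interval 81.3 to 87.6) and 94.0% of the 9774 peaks outside runs (interval 93.5 to 94.5). Median peak widths were 770 bp in blocks, 331 bp in sparse runs and 257 bp outside. Median scores were 178.25, 65.67 and 58.79. In median width and score the peaks of sparse runs were thus nearer to the rest of the list than to the peaks of blocks. Block peaks were wider by median, higher-scored by median and set almost edge to edge. Blocks differed among themselves, with median scores from 56.145 to 1577.18. The median gap between neighbouring peaks had a median of 109 bp over blocks, against 1739 bp over sparse runs. Blocks were set apart by covered share, so their wider peaks and smaller gaps follow in part from that split. Their higher scores may follow in part from it too, if scores rise with width, which was not tested.

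The block with the most peaks lay on chromosome 18 at 55823391 to 56074257, the place of NEDD4L, a ubiquitin ligase that limits sodium channels at the cell surface. Its 177 peaks covered 85.5% of 250.9 kb, the greatest length of any run, and 15 of them scored 1000 or more. The first 3 of its 10 equal parts were 66.2%, 64.8% and 73.2% covered, and the other 7 parts between 89.9% and 95.1%, so the signal thinned toward the lower coordinate. The highest score, 3100, was held by a peak at 98.1% of the block's length.

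At NCAM2 on chromosome 21, which encodes a neural cell adhesion molecule, lay 3 blocks. The first, at 22370429 to 22549929, had 151 peaks over 179.5 kb (84.3% covered), with its top peak, of score 3100, at 1.91% of its length. The next, at 22587153 to 22635805, had 43 peaks, 66.0% covered, and no peak above a score of 818.98. The last, at 22828965 to 22880900, had 25 peaks and was 93.3% covered, with a single peak of 16.8 kb in it. From the first base of the first to the last base of the last they extended over 510.5 kb, and no number was skipped in any of them.

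A pair of blocks on chromosome 14, with 50234 bp between them, lay at PRKD1, the gene of protein kinase D1. The block at 30133304 to 30246048 had 92 peaks (73.4% covered, top score 1380.03), and the block at 30296283 to 30406954 had 47 peaks (85.9% covered, top score 3100). Both blocks on chromosome 6, separated by 19373 bp, lay at MYO6, which encodes an unconventional myosin that moves toward the minus end of actin filaments. The left one, at 76455841 to 76481155, had 19 peaks and was 59.1% covered, and the right one, at 76500529 to 76609101, had 79 peaks and was 63.6% covered. Their top scores, 762.71 and 1329.97, were low among blocks.

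The block on chromosome 5 at 54708698 to 54831090 lay at PLPP1, a phospholipid phosphatase gene, with 86 peaks over 122.4 kb (83.9% covered). It held a peak of 13.9 kb with a score of 3100. The block on chromosome 11 at 113976609 to 114075342 lay at ZBTB16, which encodes the zinc finger repressor PLZF, with 72 peaks, 80.6% covered. The block on chromosome 5 at 107541786 to 107664967 lay at FBXL17, an F-box protein gene, with 67 peaks, 80.8% covered. In that block stood the widest peak of any run, 32.5 kb long with a score of 2225.08. The covered share differed along the block, with 41.0% in the second of its 10 parts and 100% in the eighth and ninth.

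**Figure D2:**
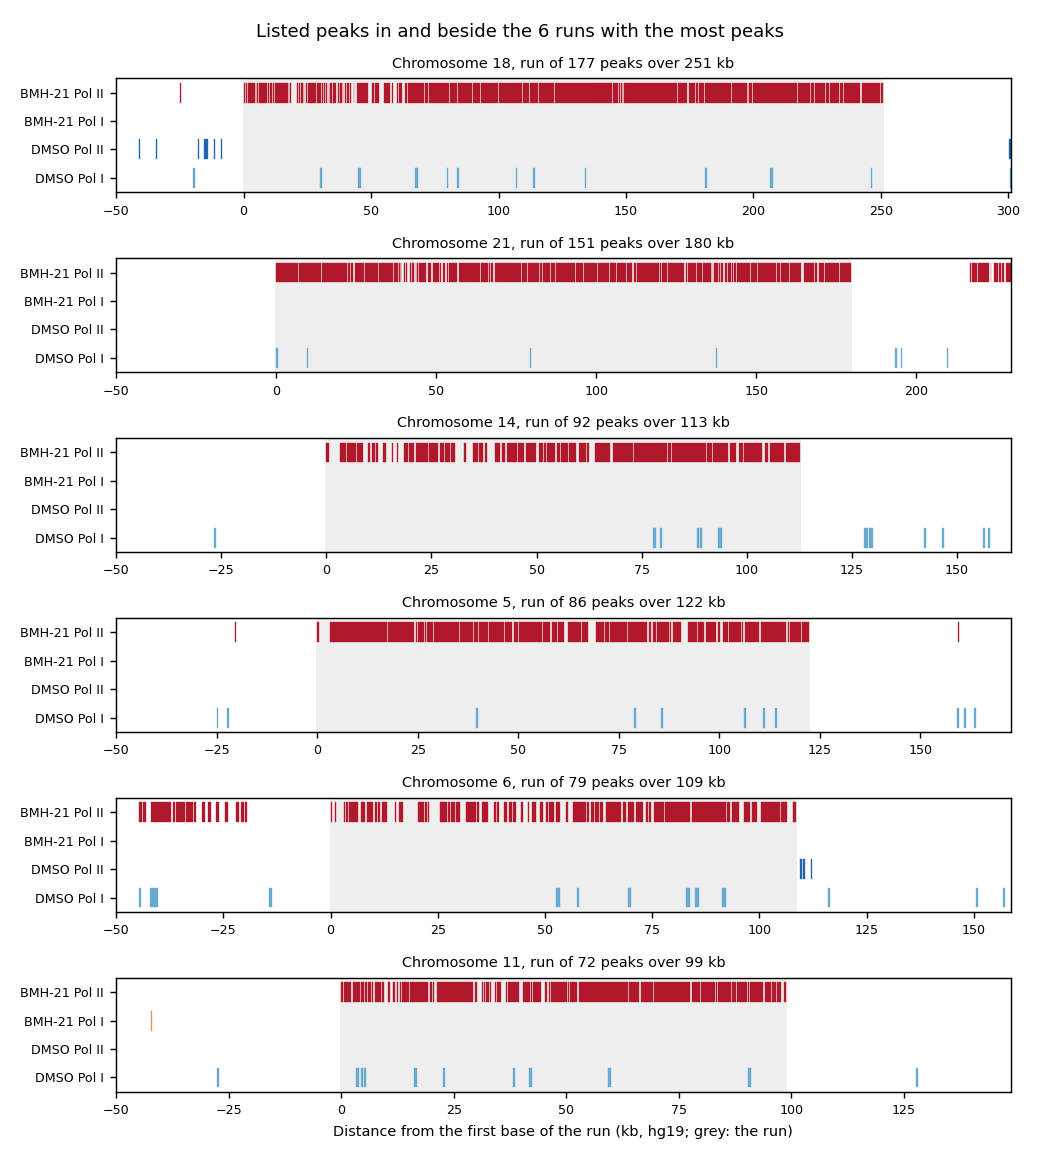
Bars show the listed peaks of the 4 libraries by distance from the first base of the run (x axis, kb), for the 6 runs with the most peaks (72 to 177) and 50 kb on each side; grey marks the run. BMH-21 Pol II peaks cover 63.6% to 85.5% of the grey area, and DMSO Pol I peaks stand both inside and outside it. The DMSO Pol II row is empty within it in all 6, where only length not under BMH-21 Pol II peaks could hold such a peak.

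The blocks with the highest covered share included 2 made of few, wide peaks. The block on chromosome 4 at 101935944 to 102089715, the place of PPP3CA, which encodes the catalytic subunit of the phosphatase calcineurin, consisted of 18 peaks over 153.8 kb. These covered 99.4% of it, the highest share of any run, with a median width of 5560 bp and a largest gap of 143 bp. Of the 18, 11 scored 1000 or more, and 8 were wider than 10 kb. The block on chromosome 11 at 34642254 to 34691405, at EHF, an epithelial ETS transcription factor gene, was 97.5% covered by 10 peaks. Blocks at KCNN2, a calcium-activated potassium channel gene (chromosome 5, 113715533 to 113811732, 50 peaks), and at KDM6A, a histone H3 lysine demethylase gene (chromosome X, 44730330 to 44825485, 48 peaks), were 94.5% and 94.4% covered. KDM6A held the highest score in the list, 3120.65. The fifth by covered share was at RASSF3, a Ras association domain gene (chromosome 12, 65032277 to 65105537), with 47 peaks and 93.3%.

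The remaining named blocks were at PRKACB, a catalytic subunit of protein kinase A (chromosome 1, 84621449 to 84670072, 17 peaks, 91.8% covered), TBL1XR1, a subunit of nuclear receptor corepressor complexes (chromosome 3, 176721619 to 176810193, 54 peaks, 91.2%), ST3GAL1, a sialyltransferase gene (chromosome 8, 134459640 to 134541517, 49 peaks, 87.4%), and PPFIA2, a liprin gene (chromosome 12, 81889224 to 81942795, 44 peaks, 70.1%). The other 3 blocks, which have no name here, were, with the left MYO6 block, the 4 shortest. A block of 11 peaks lay on chromosome 14 at 19672922 to 19705716, one of 15 peaks on chromosome 15 at 20861452 to 20894312, and one of 10 peaks on chromosome 1 at 143442689 to 143458366. These stretches are near centromeres. The first and second of them were the only blocks with a skipped BMH-21 Pol II number, 6 and 4 of them. In the other 21 blocks every number between the first and last peak was listed. In the sparse runs 171 numbers were skipped, and 6 of the 31 had none.

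**Figure D3:**
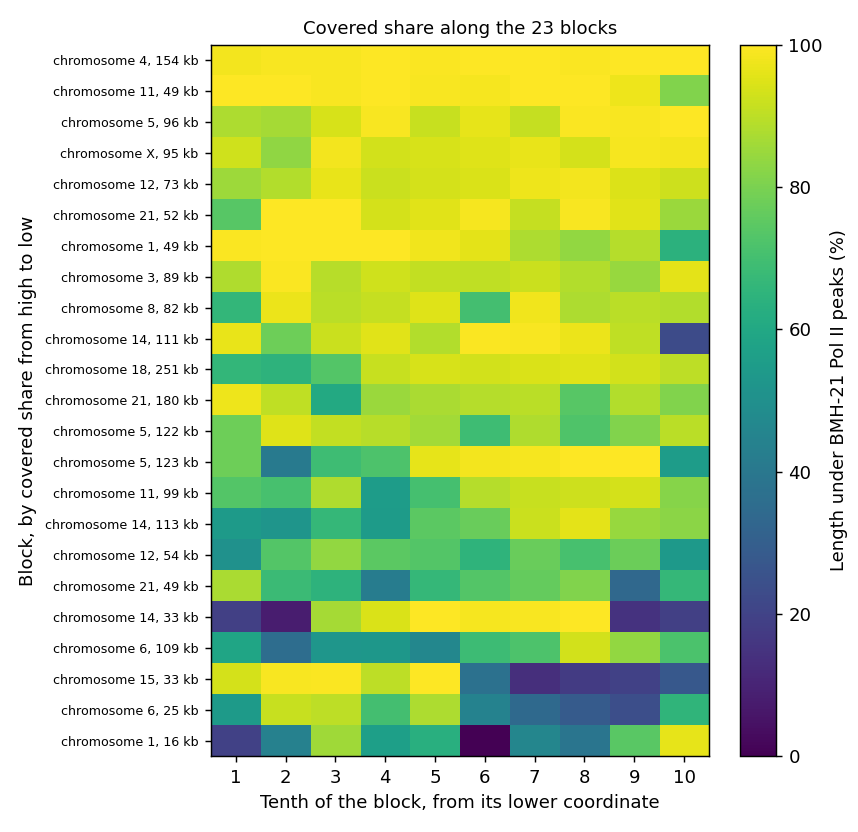
Each row is 1 of the 23 blocks, ordered by covered share, and each cell gives the percent of 1 of its 10 equal parts under BMH-21 Pol II peaks, from the lower coordinate at the left. The top rows are above 70% in nearly every part, while the chromosome 15 block is filled at the left and thin at the right. The left chromosome 6 block is thinnest in its sixth to ninth parts (44.3% to 23.9%), with 65.3% in the last.

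Blocks did not share 1 profile along their length. The 8 inner parts were more covered than the outer pair in 15 of 23 blocks, with medians of 84.4% inside and 77.5% at the ends. The position of the top-scored peak ranged from 1.91% to 98.1% of the length, with a median of 51.2%. Since a run starts and ends with a peak by definition, cover at the ends is partly set by the rule.

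Since the rule counts peaks, signal called as 1 wide peak does not meet it. Of the 18 BMH-21 Pol II peaks wider than 10 kb, 17 lay in runs. The other, on chromosome 21 at 17783740 to 17916828, was the widest of all at 133.1 kb, and stood in a group of 2 peaks. At the threshold itself, 10 runs had exactly 10 peaks. The longest of these were the sparse run on chromosome 16 at 21413317 to 21467191 (53.9 kb, 5.23% covered, top score 86.8), the EHF block, and the sparse run on chromosome 16 at 22470032 to 22510783 (40.8 kb, 8.47%, top score 102.56). Just outside were 9 groups of 9 peaks, of which the longest were on chromosome 5 at 107206203 to 107250239 (44.0 kb, 6.43% covered, top score 105.38), chromosome 16 at 21858874 to 21895533 (36.7 kb, 7.51%) and chromosome 2 at 9076625 to 9109819 (33.2 kb, 8.60%). All 9 groups were less than 50% covered, so none of them would have been a block.

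Many sparse runs lay in stretches known for repeated sequence. On chromosome 5, 7 sparse runs with 122 peaks lay between 68914592 and 70577356, a stretch known for large segmental duplications, each 11.1% to 33.2% covered, with 63 skipped numbers in all. On chromosome 1, 4 sparse runs and the short block lay between 143442689 and 148328514, on the duplicated part of the long arm next to the centromere. The largest by peaks among these was at 145299564 to 145371546, with 32 peaks, 17.8% covered. Others lay beside the centromere of chromosome 4 (2 runs, 25 peaks, at 49180649 to 49605876) and at the ends of the long arms of chromosomes 4 and 10. In near-identical copies a read can be placed in more than 1 position, and how the authors placed such reads is not given in the sources used here, so values in these stretches are uncertain.

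Other sparse runs lay at single genes. The one with the most peaks was on chromosome 2 at 192909461 to 193057213, at TMEFF2, a transmembrane protein gene expressed in prostate, with 46 peaks over 147.8 kb, 9.32% covered and a top score of 151.56. Named runs lay also at PIK3R3, a regulatory subunit of phosphoinositide 3-kinase (chromosome 1, 46512019 to 46566142, 29 peaks), GULP1, an engulfment adaptor gene (chromosome 2, 189340344 to 189368576, 17 peaks, 17.9% covered), NDRG1, an androgen- and hypoxia-responsive gene (chromosome 8, 134255226 to 134295353, 14 peaks, 8.81%), and KDM4B, a histone lysine demethylase gene (chromosome 19, 5058021 to 5099819, 12 peaks, 7.15%). The run nearest to a block in cover was at LIMCH1, a gene that takes part in actin and myosin assembly (chromosome 4, 41590650 to 41618089), with 19 peaks, 44.5% covered and a top score of 487.83. The 5 lowest covered shares, 5.23% to 8.81%, were those of both chromosome 16 runs named above, the run on chromosome 1 at 146404793 to 146471972 (6.70%), KDM4B and NDRG1. In 6 sparse runs every peak scored under 100. The other 10 sparse runs were those on chromosome 16, a run on chromosome 2 and a run on chromosome Y described with the DMSO Pol II list, and 6 runs of 10 to 24 peaks. Chromosome 7 had its run at 102263883 to 102287050, and chromosome 8 had one at 81404500 to 81429837. Chromosome 15 had a run at 82951714 to 82974813 and another at 84870132 to 84891971. On chromosome 19 the run was at 36761656 to 36805519, while that of chromosome 21 was at 9667342 to 9689644, near the centromere. These 6 were 13.0% to 28.6% covered, with top scores of 106.78 to 196.81.

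Over their whole length, blocks held fewer listed DMSO Pol II peaks per Mb than their flanks, which is partly set by how blocks were defined. Of 23 blocks, 4 (17.4%) held any, 8 peaks in all or 3.89 per Mb, and 79 stood in the 50 kb on either side, or 34.3 per Mb. As a background, 32.1% of consecutive windows of the median block length held a DMSO Pol II peak, and the chromosomes that carry blocks had 8.71 per Mb. The blocks with DMSO Pol II peaks inside were FBXL17 (3), the third NCAM2 block (1) and those without a name on chromosomes 15 (3) and 14 (1). Both Pol II lists have no position in common (0% of BMH-21 Pol II peaks meet a DMSO Pol II peak), so a DMSO peak could be listed only on the part of a run that was not under BMH-21 Pol II peaks. That part came to 0.331 Mb for the blocks, and on it stood 24.2 DMSO Pol II peaks per Mb. This was above the 8.71 per Mb of their chromosomes and below the 34.3 per Mb of the flanks. The median gap had a median of 109 bp over blocks. The median DMSO Pol II peak of the whole list was 498 bp wide, so many gaps could not hold one.

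In the sparse runs, 14.9% of whose length was covered, DMSO Pol II peaks were denser inside than in the flanks. A DMSO Pol II peak was listed in 26 of 31 (83.9%), against 21.8% of windows of the median length of all runs. These runs held 127 peaks, or 92.7 per Mb, with 56.1 per Mb in their flanks and 9.90 per Mb on their chromosomes. On their uncovered 1.17 Mb this made 108.9 per Mb. On uncovered length both kinds of run thus stood above their chromosomes, and only the sparse runs above their flanks. The chromosome Y run at 14838648 to 14888634 had the most, 22, followed by TMEFF2 with 21 and the chromosome 2 run at 181438882 to 181465516 with 9. TMEFF2 and the chromosome Y run thus held 46 and 21 BMH-21 Pol II peaks and, in the gaps between them, 21 and 22 DMSO Pol II peaks.

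**Figure D4:**
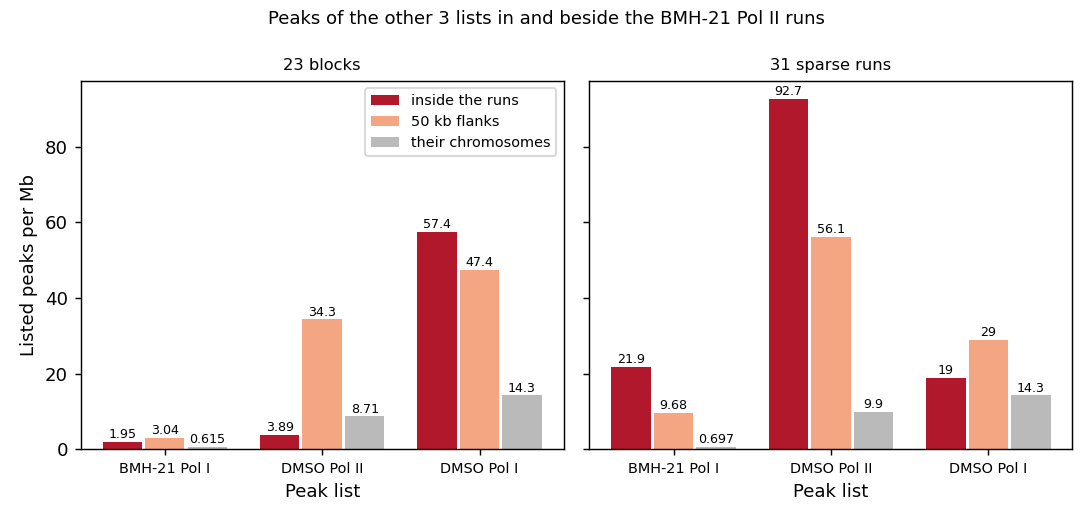
Bars give listed peaks per Mb of the BMH-21 Pol I, DMSO Pol II and DMSO Pol I lists inside the runs (red), in the 50 kb on each side (orange) and on the chromosomes that carry the runs (grey), for the 23 blocks and the 31 sparse runs. DMSO Pol II stands at 3.89 per Mb inside blocks against 34.3 in their flanks, and at 92.7 inside sparse runs against 56.1. DMSO Pol II peaks were listed only on length not under BMH-21 Pol II peaks, 0.331 Mb in blocks and 1.17 Mb in sparse runs. No bar has a replicate error.

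Unlisted DMSO Pol II peaks may lie in the same stretches. Between the listed DMSO Pol II peaks that bound a block, 0 to 13 DMSO numbers were skipped, with a median of 6, and in 1 block, the third at NCAM2, the count was 0. Around the sparse runs with a listed peak on both sides it was 1 to 38, with a median of 15. The highest was at LIMCH1, where 38 DMSO numbers were skipped and no BMH-21 number was. A skipped number may belong anywhere between the bounding peaks. Thus the absence of listed DMSO Pol II peaks in a block does not measure how much Pol II was there in DMSO cells.

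At the edges of some blocks the lists changed over within a short distance. A DMSO Pol II peak stood within 10 kb of an edge in 10 of 23 blocks and within 1 kb in 4. Among the 31 sparse runs the counts were 15 and 5, so such short distances were not particular to blocks. At the third NCAM2 block it ended 40 bp before the first BMH-21 Pol II peak (score 101.9), and on the right of FBXL17 it began 252 bp after the last one (106.32). The distance was 404 bp on the left of TBL1XR1 (92.73) and 810 bp on the right of the larger MYO6 block (81.41). At the other extreme, PPP3CA had no listed DMSO Pol II peak within 458534 bp of its left edge or 696943 bp of its right edge. Of the 16 blocks with DMSO Pol II peaks in a flank, 12 had them on 1 side only, 9 on the right and 3 on the left, and 4 had them on both. NEDD4L had 7 on the left and 1 on the right. PRKACB had 7 on the right, the left MYO6 block 8 on the left and TBL1XR1 4 on the left, with none on the other side. Among the 24 sparse runs with such peaks, 12 had them on both sides. Sides are by coordinate, not by the direction of transcription.

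Dense runs of the DMSO Pol II list, built by the same rule, numbered 260. At least 50% of the length was covered in 23 of 54 BMH-21 runs and in 5 of 260 DMSO runs, and the highest covered share was 99.4% in the BMH-21 list and 77.9% in the DMSO list. The median covered share was close, at 27.6% over BMH-21 runs and 24.5% over DMSO runs. The BMH-21 Pol II list skips 38704 numbers and the DMSO Pol II list 26641, so these values compare listed peaks only. The DMSO list is also longer, at 28798 peaks against 11540. With a fixed gap and peak number, a longer list can give more runs of low cover, which was not tested. The highest score was 3120.65 in a BMH-21 run and 1043.33 in a DMSO run, though scores of different lists may not be on 1 scale. No block touched a DMSO Pol II run. The 5 BMH-21 runs that did were all sparse: the chromosome 2 run at 181438882, wholly inside a DMSO run of 41 peaks, GULP1 and TMEFF2 on chromosome 2, NDRG1 on chromosome 8 and the run on chromosome Y, also wholly inside a DMSO run of 41 peaks. No DMSO Pol II peak was listed under a BMH-21 Pol II peak, and 83.9% of block length lay under such peaks. The contrast between blocks and sparse runs in touching DMSO runs is therefore partly set by how blocks were defined. At KDM4B a DMSO run stood 2.13 kb to the left and another 3.21 kb to the right.

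FBXL17 was the block most closely framed by DMSO runs. Its 3 DMSO Pol II peaks all stood in 1 gap, the largest of the block at 5501 bp, before its last BMH-21 Pol II peak. To its left, 82.6 kb away, was a DMSO Pol II run of 109 peaks at 107196553 to 107459173, 40.7% covered, and to its right, 13.6 kb away, a DMSO run of 10 peaks at 107678613 to 107707650. The group of 9 BMH-21 Pol II peaks on chromosome 5 named at the threshold lay within the DMSO run of 109. Both MYO6 blocks had a DMSO run of 31 peaks at 76322976 to 76415520 to their left, 40.3 kb and 85.0 kb away. No other block had a DMSO Pol II run within 100 kb.

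DMSO Pol I peaks were present in most blocks. Of 23 blocks, 21 (91.3%) held at least 1, against 58.4% of windows of the median block length, and of 31 sparse runs 14 (45.2%), against 42.5% of windows of the median run length. The blocks held 118 of these peaks, or 57.4 per Mb, with 47.4 per Mb in their flanks and 14.3 per Mb on their chromosomes. Inside and beside were thus close, and 11 blocks were denser inside than in their flanks while 11 were less dense. The sparse runs held 26, or 18.97 per Mb, against 29.0 per Mb in their flanks. DMSO Pol I numbers skipped between the bounding listed peaks were 0 to 12 per block and 0 to 4 per sparse run. FBXL17 had 12 DMSO Pol I peaks, NEDD4L 11, the right PRKD1 block 10, and PPP3CA, EHF and ZBTB16 9 each. By length, EHF had the highest density, 183.1 per Mb. The strongest inside a block was in NEDD4L, with a score of 451.79, against a median of 85.5 over the 118 and of 98.3 over the whole DMSO Pol I list.

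All 118 DMSO Pol I peaks in blocks met a BMH-21 Pol II peak by at least 1 bp, and 11 of the 26 in sparse runs did. BMH-21 Pol II peaks covered 83.9% of block length. The 118 were at least 281 bp wide and the median gap had a median of 109 bp over blocks. Most gaps in most blocks thus could not hold such a peak whole, so the block count is largely set by how blocks were defined. Counted from the other side, 9.02% of block peaks coincided with a DMSO Pol I peak by at least 1 bp (interval 7.48 to 10.8), 2.24% of sparse-run peaks (interval 1.16 to 3.89) and 9.38% of peaks outside runs (interval 8.81 to 9.98), with 9.01% over the whole list. Block peaks are wider, and a wider peak has more room for an overlap. Among peaks of 300 bp to under 1 kb, 22 of 653 in blocks did so (3.37%, interval 2.12 to 5.06), 8 of 315 in sparse runs (2.54%, interval 1.10 to 4.94) and 414 of 2950 outside runs (14.03%, interval 12.8 to 15.3). These intervals treat peaks as independent, which neighbours in a run are not, and the difference was not tested.

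Dense runs of DMSO Pol I peaks were few, 11 in the whole list, and 2 of them stood beside blocks. One of 16 peaks, at 81945892 to 81996063 on chromosome 12, began 3.10 kb to the right of the PPFIA2 block. The other, of 10 peaks at 102112595 to 102147726 on chromosome 4, began 22.9 kb to the right of PPP3CA. PPFIA2 had 14 DMSO Pol I peaks in its right flank and 1 in its left, and PPP3CA had 9 in its right flank and 2 in its left.

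Of 23 blocks, 2 (8.70%) held a BMH-21 Pol I peak, against 4.19% of windows of the median block length. The blocks held 4 such peaks, or 1.95 per Mb, with 3.04 per Mb in their flanks and 0.615 per Mb on their chromosomes. Between the listed BMH-21 Pol I peaks that bound a block, 1 to 60 numbers of that list were skipped, so unlisted peaks may lie there too. PRKACB had 3, with scores of 58.87, 74.91 and 60.75, and another 3 in its flanks, and FBXL17 had 1, with a score of 59.78. All 4 lay under a BMH-21 Pol II peak and were at most 308 bp wide. Among block peaks, 0.244% coincided with a BMH-21 Pol I peak (interval 0.0503 to 0.711), as did 3.55% of sparse-run peaks (interval 2.15 to 5.49) and 1.68% of peaks outside runs (interval 1.43 to 1.95), with 1.61% over the list. In the other 21 blocks no Pol I peak of the same treatment was listed.

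Among sparse runs, 7 of 31 (22.6%) held a BMH-21 Pol I peak, against 2.45% of windows of the median run length. They held 30 peaks, or 21.9 per Mb over all sparse runs, with 9.68 per Mb in the flanks and 0.697 per Mb on the chromosomes, and 24 of the 30 were in the runs at the ends of chromosomes 4 and 10. Those ends are known to carry arrays of the D4Z4 repeat, which are nearly identical on both chromosomes, so a read from one may have been placed on the other. The chromosome 4 run, at 190988984 to 191012521, had 12 Pol II peaks of scores up to 109.36 and 13 BMH-21 Pol I peaks of scores from 50.15 to 143.5, 9 of them under a Pol II peak. The chromosome 10 run, at 135478657 to 135494827, had 10 Pol II peaks of scores up to 106.01 and 11 Pol I peaks of scores from 62.86 to 148.79, 6 of them under a Pol II peak. In both, the BMH-21 Pol I list had a dense run of its own over the whole length of the Pol II run, of 14 and 13 peaks. Neither end had a listed DMSO Pol II peak inside or within 50 kb, and DMSO Pol I peaks inside numbered 2 on chromosome 4 and 0 on chromosome 10.

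**Figure D5:**
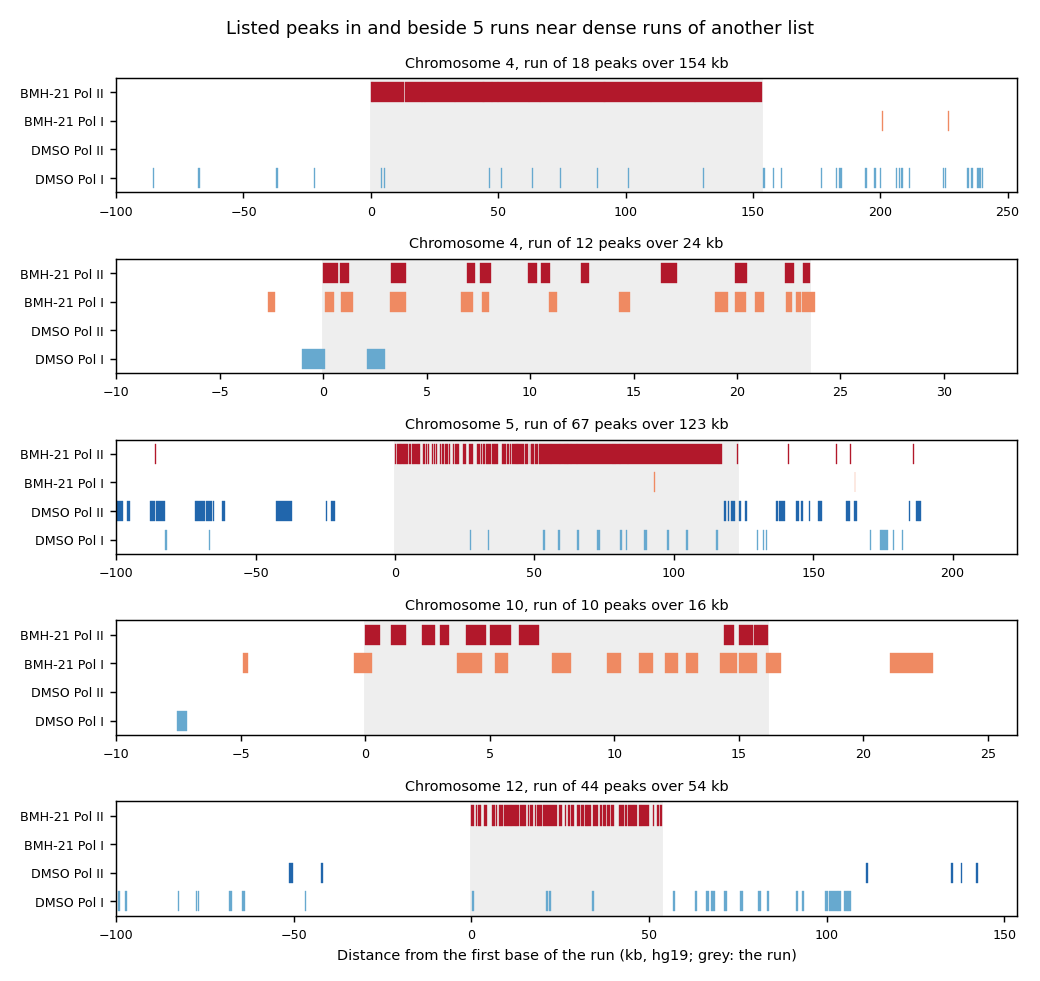
Listed peaks of the 4 libraries by distance from the first base of the run (x axis, kb), with 100 kb on each side of the blocks and 10 kb on each side of the sparse runs at the ends of chromosomes 4 and 10; grey marks the run. In the sparse runs BMH-21 Pol I peaks cover 26.1% (chromosome 4) and 37.9% (chromosome 10) of the length, and BMH-21 Pol II peaks 26.6% and 37.4%. DMSO Pol II peaks crowd beside, more than inside, the chromosome 5 block. BMH-21 Pol II peaks cover 80.8% of that block, and no DMSO Pol II peak is listed under them. DMSO Pol I peaks are denser inside it (12 peaks) than within 50 kb of it (0 on the left, 4 on the right). On chromosome 12, DMSO Pol I peaks crowd to the right of the block.

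The other BMH-21 Pol I peaks in runs were 2 in the chromosome 5 run at 69996366 to 70013570, both under a Pol II peak, and 1 each at LIMCH1 and in the runs on chromosome 5 at 70501834, chromosome 16 at 21413317 and chromosome Y. A further dense run of 13 BMH-21 Pol I peaks, at 49125064 to 49157082 on chromosome 4, stood 23.6 kb to the left of the sparse run at 49180649. Of the 10 dense runs in the BMH-21 Pol I list, 3 were thus within 100 kb of a Pol II run, and none of these 3 was near a block.

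Put by list, 19 of the 23 blocks were listed without a skipped BMH-21 number and free of DMSO Pol II peaks, and 18 held DMSO Pol I peaks with no DMSO Pol II peak among them. Because the Pol II lists share no position, DMSO Pol II peaks could be listed only on the uncovered part of the blocks, 0.331 Mb. DMSO Pol I peaks had no such limit, so both counts are partly set by the definition of a block. The block on chromosome 1 at 143442689 was the only run of the 54 with no peak of the other 3 lists inside. Among sparse runs, those at LIMCH1 and at the ends of chromosomes 4 and 10 had no skipped BMH-21 Pol II number and no DMSO Pol II peak inside, but held peaks of at least 1 of the Pol I lists.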

How the data were processed

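The authors' deposited files were 4 peak lists, 1 per ChIP library, with chromosome, start, stop, a numbered peak name and a value per peak. Per the file headers that value is a p-value, but it starts at 50, so it is a transformed score on an unstated scale and was used only as the authors' score. Per the submitters' processing notes the build was hg19, and the tools named are Bowtie2 2.2.1, CASAVA 1.8.2 and deepTools 3.5.4. Peak names begin with MACS. Its settings, the use of inputs and how listed peaks were selected are not stated there.

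Runs, gaps, covered length, skipped numbers and overlaps (1 bp or more) were computed with Python 3.11.15, NumPy 2.4.6, pandas 2.3.3, SciPy 1.17.1 and matplotlib 3.10.9, after a test on simulated data. Starts were converted to 1-based positions. Flanks were 50 kb per side, also at the 2 chromosome ends, where less sequence exists. A peak that crossed a run's edge counted as inside. Densities per chromosome used the length from the first to the last listed peak of any list. Background windows were consecutive windows of 49.6 kb (median run) and 88.6 kb (median block).

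Runs, kinds and alternatives were chosen with earlier results of these data known. Named runs are those with the most peaks, the greatest length, the highest or lowest covered share, the highest scores, BMH-21 Pol I peaks, or contact with a DMSO run, and those at the threshold. Others were named after their values were seen. No sequence of hg19 was used.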

Additional observations from a re-analysis of the deposited data

How the results depend on the processing

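No paired analysis was possible because each antibody and treatment had 1 library and no test was made. For 11 results, 70 values were computed under other settings, of which 43 were within 1.5 times the reported value and 27 beyond it. The number of blocks, 23, ranged from 15 to 30 over every alternative tried, with 15 at a covered share of 75%. The number of runs was less stable: 92 with gaps up to 20 kb (29.3% of their length covered), 198 with at least 5 peaks, 25 with at least 20, and 19 with 863 peaks when only scores of 100 or more were used. Of those 19, 18 were at least 50% covered. Runs holding a BMH-21 Pol I peak, a DMSO Pol I peak and a DMSO Pol II peak numbered 20, 72 and 65 with gaps up to 20 kb, 22, 83 and 127 with at least 5 peaks, 3, 20 and 11 with at least 20 peaks, and 2, 19 and 1 at the stricter score. With gaps up to 5 kb, 14 runs held a DMSO Pol II peak. When the overlap had to be with a peak of the run itself that count was 0, by construction, since both Pol II lists share no position. Runs touching a DMSO Pol II run numbered 0 with gaps up to 5 kb, 34 with gaps up to 20 kb, 60 and 1 with at least 5 and 20 peaks, and 0 at the stricter score. BMH-21 Pol I peaks came to 2.78 per Mb in flanks of 10 kb, against 6.85 in flanks of 50 kb. These counts did not scale with the number of runs, and the cause was not tested. Read depth is unknown, so what it limits was not measurable.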
